A study of Mus musculus with 16 samples.

Results

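The comparison described here sets the right ventricle against the left ventricle of mice with pulmonary artery banding, a surgical narrowing of the vessel that leaves the right ventricle, which raises the pressure that this chamber works against. It takes the 8 libraries whose titles carry PS, 4 from the right and 4 from the left ventricular free wall, out of 16 libraries in all. The labels use PS for the treated mice and the protocol text names banding and a sham operation only, so PS was read as banded. All animals were adult male FVB mice, an inbred strain, aged 10 to 13 weeks, and no genotype, transgene or drug is given for any group. The labels say that right ventricular failure was induced by the banding. The time from operation to sampling was not given in the sources used here. The other 8 libraries, 4 right and 4 left ventricles of sham-operated mice, allowed the same right against left comparison without a band, in different libraries. Each library is polyA RNA from free wall tissue, a mixture of cardiomyocytes, fibroblasts, endothelial and other cells. Nothing in the labels says whether a right and a left library with the same number come from 1 mouse, or that samples of a group are separate animals, so the spread behind each p-value is that between samples as deposited and may be technical.

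A healthy left ventricle pumps against systemic pressure and the right ventricle against the much lower pressure of the lung circulation. Banding loads the right ventricle directly and the left ventricle only through the shared septum, the circulation and hormones. Cardiomyocytes draw most of their ATP from mitochondrial oxidative phosphorylation, in which the respiratory chain complexes build a proton gradient that ATP synthase uses, fed mainly by fatty acid oxidation. Genes long used as signs of a loaded or failing ventricle are the natriuretic peptides Nppa and Nppb, the beta myosin heavy chain Myh7 and matrix genes of activated fibroblasts. Nuclear respiratory factor 1 (NRF1) is a transcription factor known for binding GC-rich elements in promoters of nuclear genes for respiratory chain subunits, MEF2 factors bind AT-rich elements of muscle genes, and TEAD factors bind elements of muscle and growth genes.

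Of 190 genes called different between the ventricles of banded mice (1.57% of 12100 tested), 25 were oxidative phosphorylation subunits and all 25 were lower in the right ventricle, so upstream sequences of 3 of them are shown first: Ndufs6 (complex I), Sdha (complex II) and Atp5k (ATP synthase). Each holds the NRF1 element, searched as GCGCA, any 1 base and GCGC on both strands. Myoz2, a Z disc gene that was also lower in the right ventricle, is shown for its MEF2 element, and Thbs4, which had the largest difference among the 22 genes called higher, for 2 overlapping copies of the TEAD element GGAATG, read on the opposite strand. Sequences are the 250 bases before the annotated transcript start from RefSeq, build GRCm38.p6, written 5′ to 3′ on the gene's strand, with the elements in capitals. All 5 genes lie on the minus strand. The windows are chr13:73328483-73328732 for Ndufs6, chr13:74350241-74350490 for Sdha, chr5:108434400-108434649 for Atp5k, chr3:123034988-123035237 for Myoz2 and chr13:92794819-92795068 for Thbs4.
Ndufs6: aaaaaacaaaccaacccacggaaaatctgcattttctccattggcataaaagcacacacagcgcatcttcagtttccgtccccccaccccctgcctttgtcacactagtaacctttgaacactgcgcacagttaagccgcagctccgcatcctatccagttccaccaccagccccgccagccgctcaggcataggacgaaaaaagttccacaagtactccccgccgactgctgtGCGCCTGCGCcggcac
Sdha: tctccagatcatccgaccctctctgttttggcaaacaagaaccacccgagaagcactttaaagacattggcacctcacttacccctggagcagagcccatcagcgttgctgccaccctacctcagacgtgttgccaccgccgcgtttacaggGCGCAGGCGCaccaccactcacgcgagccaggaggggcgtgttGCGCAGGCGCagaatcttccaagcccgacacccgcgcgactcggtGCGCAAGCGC
Atp5k: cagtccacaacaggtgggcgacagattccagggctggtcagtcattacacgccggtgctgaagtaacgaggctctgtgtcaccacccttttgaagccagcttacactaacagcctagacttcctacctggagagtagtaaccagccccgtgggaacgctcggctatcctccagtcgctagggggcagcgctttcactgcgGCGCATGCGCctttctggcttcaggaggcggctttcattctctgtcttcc
Myoz2: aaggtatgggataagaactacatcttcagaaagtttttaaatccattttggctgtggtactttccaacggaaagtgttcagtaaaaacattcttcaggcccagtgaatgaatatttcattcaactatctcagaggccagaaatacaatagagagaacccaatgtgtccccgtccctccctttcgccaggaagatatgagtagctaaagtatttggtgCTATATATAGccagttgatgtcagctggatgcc
Thbs4: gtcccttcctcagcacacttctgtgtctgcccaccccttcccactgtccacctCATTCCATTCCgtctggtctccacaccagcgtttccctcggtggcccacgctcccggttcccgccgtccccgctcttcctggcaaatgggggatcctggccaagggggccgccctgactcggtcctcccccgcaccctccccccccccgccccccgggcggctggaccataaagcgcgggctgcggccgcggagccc

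An upstream sequence was matched for 9408 of the 12100 genes tested. The NRF1 element was found in 876 of them (9.31%), in 12 of 64 matched oxidative phosphorylation subunits (18.8%) and in 7 of the 20 matched subunits that were lower in the right ventricle (35%). It was found in 14 of all 136 matched genes that were lower (10.3%), a share near that of all genes. The MEF2 element was found in 6 of 136 lower genes (4.41%) and in 2.27% of all genes, and the TEAD element in 23 of 136 lower genes (16.9%), in 2 of 17 matched higher genes (11.8%) and in 13% of all genes. A match describes the letters in this window and shows no binding.

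The values are FPKM, fragments per kilobase of transcript scaled to a library's mapped fragments, and were compared as log2(FPKM + 1). A difference is the right minus the left ventricular mean of 4 libraries each on that scale, which understates the change of genes with low values, and it is given with its standard error (SE). A gene counts as called when the adjusted p of limma, with Benjamini-Hochberg adjustment over all 12100 genes tested, was below 0.05 in the same direction for the values as deposited and for the same values after division by each library's scale factor. Adjusted p-values below are those as deposited, as are the FPKM values and the folds between libraries. The scale factors of the banded libraries ran from 0.896 to 1.28. The factor was 1.22 or more in the 5 libraries in which Rn45s, the ribosomal RNA precursor, is listed at 0 (left PS_9552, PS_9553 and PS_9561, right PS_9561 and PS_9564) and at most 0.976 in the other 3. Depth was estimated from the lowest values, with an assumed fragment length of 200 nt, as 2350000 to 5730000 fragments in the right and 3540000 to 8890000 in the left banded libraries. A value of 1 FPKM then stands for 6.72 to 25.4 fragments in a transcript of 3057 nt, the median length. All 13 ventricular myocyte markers passed the filter on low values, and of 14 atrial markers 13 passed and Bmp10 was at 0 in all 8 banded libraries. The atrial markers summed to 361 to 545 FPKM in the right and 235 to 570 FPKM in the left libraries, and none was called. Sln, an atrial and calcium handling gene, had a difference of 2.24 (SE 1.31, adjusted p 0.469) with overlap between the groups. Hand1, known from the developing left ventricle, was at 0 in 7 of the 8 libraries, so it gave no check of the side.

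In banded mice 22 genes were higher (0.182% of those tested) and 168 lower (1.39%) in the right than in the left ventricle, together 190 (1.57%). These shares over all genes are those to set beside each count of list members below. The called differences ran from -1.82 to -0.60 among the lower genes and from 0.59 to 2.07 among the higher ones, and 101 of the lower and 9 of the higher genes differed at least 2-fold. As deposited alone, 23 genes were higher and 350 lower (93.8% lower), and rescaled alone 82 higher and 174 lower (68.0% lower), while the median of all genes moved from -0.10 to 0.02. After quantile normalization 100 were higher and 92 lower, and with values scaled to TPM none was called (1335 at an unadjusted limma p below 0.05, smallest adjusted p 0.0529). TPM divides by a library's summed FPKM. The single entry Mir6236 made up 21.3% (right PS_9552) to 59.7% (right PS_9564) of that sum in the banded libraries. In tissue RNA, fewer cells of a type and less RNA per cell cannot be told apart.

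**Figure D1:**
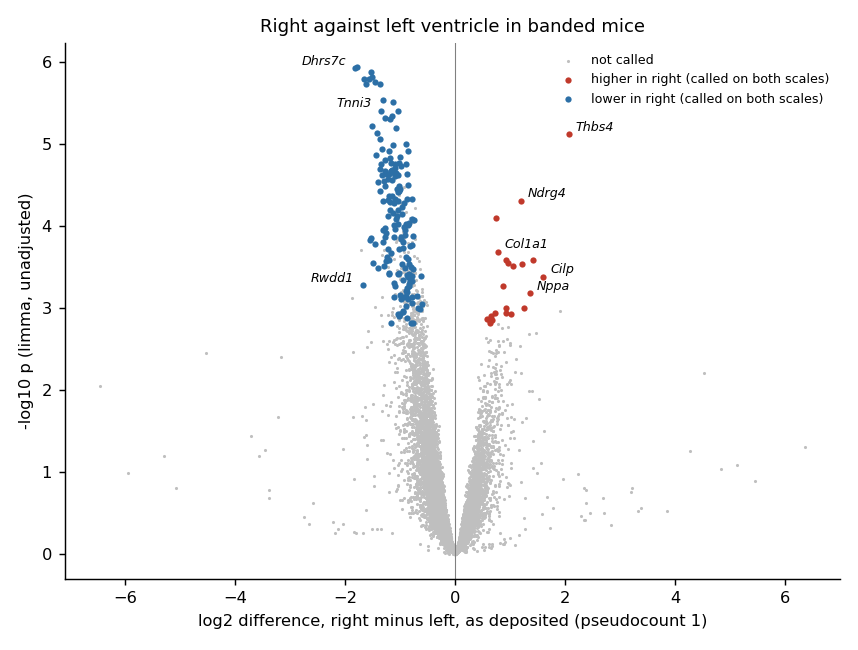
Each point is 1 of 12100 genes, with the right minus left log2 difference in banded mice as deposited (x axis) against the -log10 of limma's unadjusted p (y axis). The 168 genes called lower in the right ventricle (blue) outnumber the 22 called higher (red), and the called higher gene with the largest difference is Thbs4 at 2.07.

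The largest group of called genes was that of oxidative phosphorylation. All 78 of the 78 tested subunits, of 79 in the list, had lower values in the right ventricle on both scales, 25 were called lower, beside 1.39% of all genes tested, and none was called higher. The median difference was -0.96 as deposited and -0.81 rescaled, beside -0.10 and 0.02 over all genes. After quantile normalization it was -0.49, beside 0.004 over all genes, with 11 called lower. The medians of complexes I, III and IV and ATP synthase were then -0.52, -0.27, -0.48 and -0.75, and that of complex II 0.03. In 63 of the 78 every right library lay below every left library as deposited, a pattern seen in 8.16% of all genes tested. Required on both scales, it was seen in 4.79% of all genes, a count not made for the subunits. The summed FPKM of the 78 subunits was 50660, 44580, 53270 and 37210 in right PS_9552, PS_9553, PS_9561 and PS_9564, and 104400, 97180, 77570 and 88500 in the left libraries of the same numbers. The 2 sets of sums, which are as deposited, did not overlap, and right PS_9564 was the lowest of all 8. The scale factor was 0.896 in right PS_9552 and 1.285 in left PS_9561, so rescaling brings the sums of these libraries closer together. The number called depended on single libraries, from 4 without left PS_9552 or left PS_9553 and 5 without right PS_9564 to 30 without sham right replicate 2, while the median as deposited stayed between -1.04 and -0.85 in these fits.

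Complex I, which takes electrons from NADH, had 12 of 37 subunits called lower and none higher, with a median of -0.99. Ndufs6, an accessory subunit needed for assembly of the matrix arm, measured 652, 620, 746 and 668 FPKM in the right libraries (in the order PS_9552, PS_9553, PS_9561, PS_9564, used throughout) and 1845, 2242, 1745 and 1886 FPKM in the left libraries. The lowest left library was, as deposited, more than 2-fold above the highest right one, and the log2 difference was -1.52 (SE 0.21, adjusted p 0.00253). Ndufb9 differed by -1.51, Ndufb7 by -1.44, Ndufb11 by -1.37 and Ndufs3, a core subunit, by -0.98. Ndufb7 and Ndufb9 are accessory subunits of the membrane arm.

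Complex II, which links the citric acid cycle to the chain, had 1 of 4 subunits called. Sdha, its catalytic subunit, measured 218, 240, 289 and 304 FPKM in the right and 482, 403, 400 and 316 FPKM in the left libraries. The groups did not overlap, but the highest right and lowest left library lay close together, and the difference of -0.60 (SE 0.15, adjusted p 0.0383) was the smallest among the genes called lower. Complex III had 1 of 10 subunits called, its hinge protein Uqcrh at -1.15 (SE 0.20, adjusted p 0.00642), with a median of -0.70 over the complex.

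Complex IV, cytochrome c oxidase, had 4 of 13 subunits called lower, with a median of -0.95. Cox6a2, the heart and skeletal muscle form of subunit 6a, measured 1770, 2506, 2340 and 1830 FPKM in the right and 5334, 5541, 5080 and 5606 FPKM in the left libraries. The left libraries were, as deposited, tightly grouped and all more than 2-fold above the highest right library. The difference was -1.37 (SE 0.22, adjusted p 0.00508). Cox4i1 differed by -1.07, Cox7a2 by -1.14 and Cox7b by -0.95. Cox7a1, the muscle form of subunit 7a, had a difference of -1.16 (SE 0.25) with an adjusted p of 0.019 as deposited but 0.108 rescaled, so it was not called.

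ATP synthase had 7 of 14 tested subunits called lower and the lowest median of the 5 complexes, -1.14. Every tested subunit had its right libraries below all left libraries as deposited. Atp5k, a membrane subunit linked to the pairing of synthase complexes, measured 3284, 2941, 3450 and 2052 FPKM in the right and 7796, 8402, 5826 and 7295 FPKM in the left libraries. No right library reached the lowest left library, and the difference was -1.34 (SE 0.23, adjusted p 0.00593). Atp5o, of the stalk that joins the 2 parts of the enzyme, differed by -1.42, Atp5g1, which encodes the ring subunit c, by -1.32, Atp5h by -1.25, and Atp5e, the epsilon subunit, by -1.21.

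**Figure D2:**
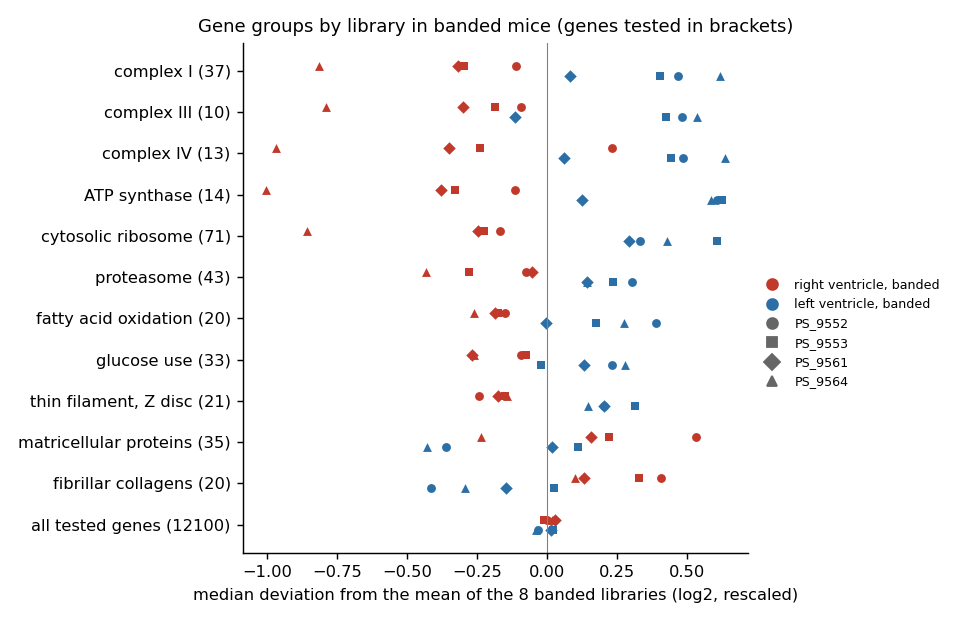
Each row is a gene group with the number of genes tested, and each symbol is 1 banded library (red right, blue left), placed at the median deviation of the group's genes from the mean of the 8 banded libraries (log2, rescaled). Complex I libraries sit from -0.81 to -0.11 in the right and from 0.08 to 0.62 in the left ventricle, while 1 right library of complex IV (PS_9552, at 0.23) lies above 1 left library (PS_9561, at 0.06).

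Fuel pathways upstream of the chain had lower medians as deposited, which were close to 0 after quantile normalization (-0.11 for fatty acid oxidation, -0.08 for glucose use and -0.03 for the citric acid cycle). The median of 20 fatty acid oxidation genes was -0.51 (rescaled -0.35). Of them 4 were called lower, beside 1.39% of all genes tested, and none higher. These were Decr1, an enzyme for unsaturated fatty acids (-1.31, SE 0.26, adjusted p 0.0128), Acaa2 (-1.09), the thiolase of the last step, Etfb (-1.07), which passes electrons on to the chain, and Hadha (-0.84), of the trifunctional protein. Of 15 genes for fatty acid uptake and storage, Fabp3, the heart fatty acid binding protein (-0.77), and Ucp3, a mitochondrial carrier (-0.90), were called lower. Cpt1b, the muscle carnitine palmitoyltransferase that admits fatty acids to mitochondria, measured 187 to 332 FPKM in the right and 250 to 338 FPKM in the left libraries, which overlapped (-0.23, SE 0.17, adjusted p 0.577). Without left PS_9552 or left PS_9564 no fatty acid oxidation gene was called.

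Of 33 genes of glucose use 4 were called lower, beside 1.39% of all genes, and none higher, with a median of -0.53. Fbp2, the muscle fructose bisphosphatase of glycogen synthesis from lactate, measured 2.93, 2.82, 2.39 and 3.37 FPKM in the right and 11.5, 9.78, 7.36 and 12.04 FPKM in the left libraries, a difference of -1.51 (SE 0.23, adjusted p 0.00434). The glycolytic enzymes Eno3 (-1.14) and Pgam2 (-0.84) and the heart lactate dehydrogenase subunit Ldhb (-0.86) were the other three. Of 14 citric acid cycle genes only Dld, a shared subunit of 2-oxoacid dehydrogenases, was called (-0.79). It was called in only 1 of the 16 fits that each left out 1 library. Pdk4, the kinase that restrains pyruvate oxidation, overlapped between the groups (-0.31, SE 0.33, adjusted p 0.765).

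Creatine kinase Ckm, the muscle enzyme that buffers ATP, measured 485, 572, 622 and 590 FPKM in the right and 1576, 1282, 1482 and 1313 FPKM in the left libraries. All left libraries were, as deposited, at least 2-fold above every right library, and the difference was -1.32 (SE 0.19, adjusted p 0.00336). No gene among 17 regulators of energy metabolism was called in either direction. The coactivator Ppargc1a overlapped between the groups (-0.39, SE 0.30, adjusted p 0.62), as did the nuclear receptor Esrra (-0.29, SE 0.15, adjusted p 0.399). Of 20 antioxidant and oxidant enzymes 2 were called lower, beside 1.39% of all genes. These were the superoxide dismutases Sod1 (-1.02) of the cytosol and Sod2 (-0.64) of mitochondria.

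Genes of contraction were divided. Of 20 thick filament and M band genes 2 were called lower, and of 21 thin filament and Z disc genes 3. The share over all genes was 1.39% lower, and none was called higher in either list. The thick filament median was -0.25 as deposited, -0.10 rescaled and 0.14 after quantile normalization. The thin filament median was -0.53, -0.38 and -0.13 on the same scales. Myl2, the ventricular regulatory myosin light chain, measured 4560, 4751, 7048 and 5218 FPKM in the right and 15050, 18330, 15800 and 14070 FPKM in the left libraries. The lowest left library was about double the highest right one, and the difference of -1.57 (SE 0.22, adjusted p 0.00253) corresponds to mean levels 2.93-fold higher in the left ventricle. Tnni3, cardiac troponin I, measured 2079, 2171, 2898 and 2721 FPKM in the right and 7891, 6075, 5367 and 5700 FPKM in the left libraries, again with no overlap (-1.34, SE 0.20, adjusted p 0.00374). Tnnc1, the calcium-binding troponin, differed by -0.998, Myoz2, which binds calcineurin at the Z disc, by -1.17, and Myh6, the fast alpha myosin heavy chain, by -0.88.

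Myh7, the slow beta myosin heavy chain, was not called between the ventricles of banded mice. It measured 273, 531, 630 and 753 FPKM in the right and 455, 828, 904 and 471 FPKM in the left libraries, which overlapped widely (-0.30, SE 0.28, adjusted p 0.708). Acta1, skeletal alpha actin, a gene of the hypertrophy programme, likewise overlapped (0.29, SE 0.56, adjusted p 0.894). So did the stretch-responsive Ankrd1 (0.13, SE 0.33, adjusted p 0.927). Myh6 and Myh7 are near neighbours in sequence, and how reads shared between them were assigned was not tested.

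Among 24 calcium handling genes 3 were called lower, beside 1.39% of all genes, and none higher. Their median was -0.40 as deposited, -0.24 rescaled and -0.10 after quantile normalization. Casq1, a calsequestrin of the sarcoplasmic reticulum, the calcium store of muscle, differed by -1.46 (SE 0.30, adjusted p 0.0154), Hrc, a calcium-binding protein of the same store, by -1.19, and Pln, phospholamban, which restrains the calcium pump, by -0.89. Dhrs7c, a dehydrogenase of the sarcoplasmic reticulum outside the lists, had the largest difference of the genes called lower. It measured 15.3, 17.6, 22.6 and 27.4 FPKM in the right and 108, 71.7, 57.2 and 67.9 FPKM in the left libraries, all left libraries being more than 2-fold above all right ones (-1.82, SE 0.25, adjusted p 0.00253). Of the channel genes, none of 16 potassium channel genes was called. Kcnip2, the channel subunit of the transient outward current, measured 107 to 165 FPKM in the right and 96.6 to 137 FPKM in the left libraries (0.09, SE 0.19, adjusted p 0.902).

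**Figure D3:**
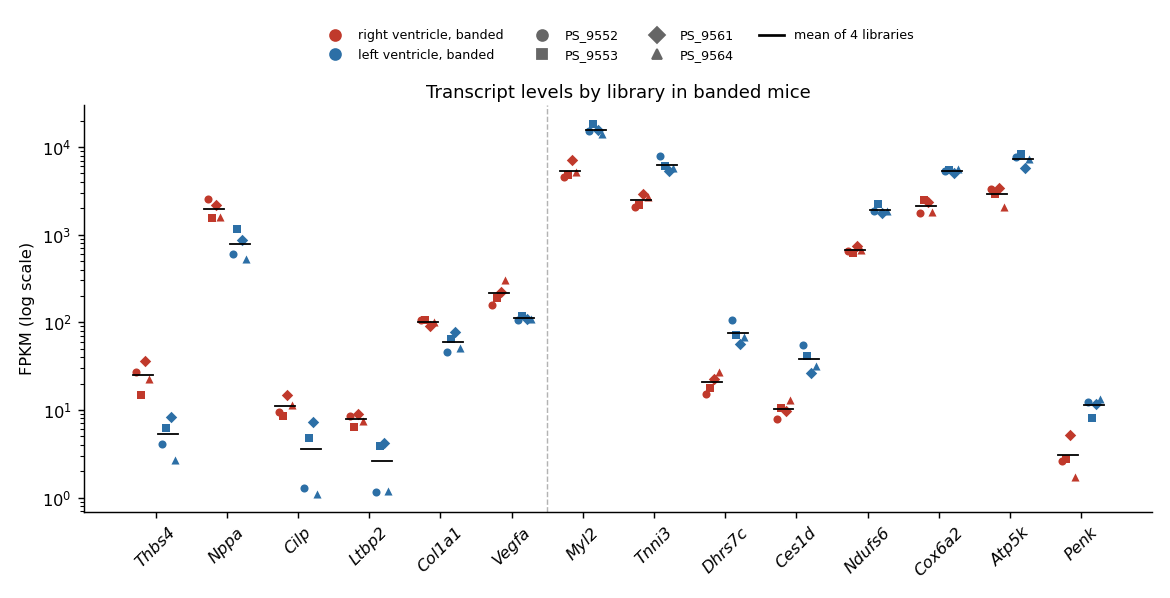
FPKM on a log axis for 6 genes called higher (left of the dashed line) and 8 called lower in the right ventricle of banded mice, with a symbol for each library number and a bar at the mean of 4 libraries. In all 14 genes the red (right) and blue (left) libraries do not overlap, from Thbs4 at 14.8 to 36.0 against 2.70 to 8.30 FPKM to Penk at 1.73 to 5.19 against 8.13 to 13.2 FPKM.

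Among genes of protein synthesis and turnover the ribosomal proteins had most of the calls. Of 71 tested cytosolic ribosomal protein genes 20 were called lower and none higher, all 71 had lower values as deposited and 68 rescaled, and the median was -0.96 (rescaled -0.82, quantile normalized -0.62). Rps14 measured 160, 110, 183 and 115 FPKM in the right and 294, 335, 319 and 264 FPKM in the left libraries (-1.12, SE 0.21, adjusted p 0.00994). Mitochondrial ribosomal proteins had 2 of 76 genes called lower, a share near the 1.39% of all genes, and a median of -0.54 (rescaled -0.38, quantile normalized -0.29). Genes with Psm symbols, mostly of the proteasome, had 6 of 43 called lower and a median of -0.59 (rescaled -0.44, quantile normalized -0.31). Tpt1, known as the translationally controlled tumour protein, differed by -1.53 (SE 0.31, adjusted p 0.0144). Tpt1 and many ribosomal protein genes have processed copies elsewhere in the genome, so their levels are uncertain. Without left PS_9552 or left PS_9553 the ribosomal protein count fell from 20 to 1.

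Among the remaining lower genes, Ces1d, a carboxylesterase that hydrolyses lipid esters, measured 7.96, 10.6, 9.70 and 13.0 FPKM in the right and 54.7, 41.1, 26.7 and 31.9 FPKM in the left libraries. Its lowest left library was, as deposited, more than 2-fold above the highest right one (-1.78, SE 0.24, adjusted p 0.00253). Penk, the precursor of the enkephalin opioid peptides, measured 2.60, 2.72, 5.19 and 1.73 FPKM against 12.2, 8.13, 11.8 and 13.2 FPKM (-1.65, SE 0.23, adjusted p 0.00253). Ttll1, of the tubulin polyglutamylase complex, differed by -1.62, Fitm1, a lipid droplet protein of muscle, by -1.45, and the mitochondrial co-chaperone Dnajc15 by -1.54. Map1lc3a, an autophagosome membrane protein, differed by -1.36 and Trim54, a muscle ring finger protein, by -0.85, the 2 called of 18 atrophy and turnover genes. The small heat shock protein Hspb7 (-0.79) was the 1 called of 21 chaperones. Rwdd1 had a large difference from low levels, 0.31 to 2.198 FPKM in the right and 2.58 to 9.13 FPKM in the left libraries (-1.67, SE 0.39, adjusted p 0.0288).

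Of 33 cardiac transcription factors 1 was called, beside 1.57% of all genes. This was Hopx, a homeodomain protein that binds no DNA, lower at -0.99 (SE 0.17, adjusted p 0.00593). Fhl2, a LIM domain protein of the sarcomere, was the 1 called of 27 hypertrophy and stretch genes, lower at -0.78. The list as a whole leaned the other way, with 16 of the 27 positive as deposited and a median of 0.13 (rescaled 0.29). Tbx5, a T-box factor known for higher expression in the left ventricle of the embryo, measured 4.36 to 7.17 FPKM in the right and 8.51 to 15.04 FPKM in the left libraries without overlap, but its adjusted p of 0.0577 missed the threshold (-0.83, SE 0.23). Tbx20 (0.11, SE 0.33), Hand2 (-0.36, SE 0.21) and Irx4 (0.18, SE 0.20) overlapped between the groups and were not called.

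Genes that were higher in the right ventricle included the atrial natriuretic peptide and several secreted matrix proteins. Thbs4, thrombospondin 4, a matricellular protein, measured 27.2, 14.8, 36.0 and 22.8 FPKM in the right and 4.13, 6.19, 8.30 and 2.70 FPKM in the left libraries. Every right library was above every left one, and the difference was 2.07 (SE 0.33, adjusted p 0.00463). Cilp, cartilage intermediate layer protein, measured 9.47, 8.46, 14.9 and 11.5 FPKM against 1.28, 4.77, 7.28 and 1.10 FPKM (1.61, SE 0.37, adjusted p 0.0246). Ltbp2, a microfibril protein of the latent TGF-beta binding family, measured 8.43, 6.38, 9.09 and 7.47 FPKM against 1.16, 3.89, 4.16 and 1.18 FPKM (1.41, SE 0.31, adjusted p 0.0205). These 3 were the called members of 35 matricellular proteins and proteoglycans, whose median was 0.12 as deposited and 0.27 rescaled. Over all genes 0.182% were called higher. In all 3 genes left PS_9552 and PS_9564 were the lowest of the 4 left libraries.

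Collagens had higher values with few calls. Of 20 tested genes for fibrillar collagens and their processing 1 was called higher, beside 0.182% of all genes. The median of the 20 was 0.28 (rescaled 0.42). Col1a1, the alpha 1 chain of type I collagen, measured 107, 107, 89.7 and 100.1 FPKM in the right and 45.8, 64.3, 77.0 and 51.3 FPKM in the left libraries, with no overlap (0.77, SE 0.16, adjusted p 0.0177). In 5 of the 20 every right library was above every left one, against 2.43% of all genes. Col3a1, of type III collagen, also did not overlap but missed the threshold (0.73, SE 0.22, adjusted p 0.0814). Col12a1, a collagen on the surface of fibrils, was called at 1.06 from levels of 1.03 to 3.02 FPKM in the right and 0.04 to 0.63 FPKM in the left libraries. Postn, periostin, overlapped (1.04, SE 0.38, adjusted p 0.174), as did Ctgf (0.54, SE 0.29, adjusted p 0.417) and the protease inhibitor Timp1 (0.39, SE 0.46, adjusted p 0.799).

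Nppa, the atrial natriuretic peptide precursor, measured 2535, 1568, 2205 and 1594 FPKM in the right and 605, 1147, 881 and 532 FPKM in the left libraries. The groups did not overlap, and the difference was 1.35 (SE 0.33, adjusted p 0.0333), with a mean 2.497-fold higher in the right ventricle. It was the 1 called of 10 natriuretic peptide system genes, and it was not called when any 1 of the 8 banded libraries was left out. Nppb, the B-type precursor, measured 1033, 1002, 1167 and 894 FPKM in the right and 238, 1099, 633 and 330 FPKM in the left libraries. Left PS_9553 lay within the right range, and the difference of 1.07 (SE 0.43, adjusted p 0.215) was not called. Gdf15, a stress-induced cytokine, measured 23.3 to 48.3 FPKM against 4.72 to 13.1 FPKM without overlap (1.91, SE 0.49). Its adjusted p was 0.042 as deposited and 0.0514 rescaled, so it was not called.

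The other called genes were of varied function. Vegfa, the main endothelial growth factor, measured 156, 191, 220 and 302 FPKM in the right and 106, 119, 109 and 109 FPKM in the left libraries, a narrow left range with all right libraries above it (0.92, SE 0.24, adjusted p 0.0437). The imprinted non-coding RNA Meg3 was higher by 1.22 and Ndrg4 by 1.19, with the second smallest p of the higher genes (adjusted p 0.00816). Dact3, an inhibitor of Wnt signalling, was higher by 0.97, the kinase Jak3 by 0.92, the E3 ligase Dtx3 by 0.93, the receptor phosphatase Ptprs by 0.73 and Vasp, an actin regulator, by 0.68. Fam193b (1.02) and Fam219a (0.75) were also higher. A further 4, Col27a1 (0.87), Trim47 (0.65), Prkab2, a subunit of AMP-activated kinase (0.64), and the netrin receptor Unc5b (0.63), were named after their values were seen. Of the 16 fits that each left out 1 library, Vasp and Unc5b were called in 2, Prkab2 in 3 and Ptprs in 4. Dtx3 and Meg3 were called in 12 of these fits and Fam219a in 14.

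The right against left difference in banded mice was then set beside that in sham mice, which come from other libraries. The sham right libraries stood apart in depth, at an estimated 338000 to 1430000 fragments and 11055 to 13205 genes above 0, beside 2070000 to 4500000 fragments and 13646 to 14462 genes in the sham left libraries. All 8 sham libraries had a value for Rn45s. Pancreatic genes had a median sham difference of 1.97, with 4 of 9 called higher in the right. The part of these in the sham contrast and the interaction was not tested. In sham mice 308 genes were higher (2.55%) and 161 lower (1.33%) in the right ventricle, together 3.88% of genes. Of the 168 genes lower in banded right ventricles 28 were called higher in sham right ventricles and 1 lower, and 140 had a positive sham difference (132 on both scales), beside 49.1% of all genes. Their median sham difference was 0.41. None of the 22 higher genes was called in sham mice in either direction, and 11 of them had a positive and 11 a negative sham difference. Across all 12100 genes, which are not independent replicates, the banded and sham differences had a Pearson r of -0.055.

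The difference between the 2 contrasts (banded minus sham) was tested as an interaction over all 16 libraries. It was called positive for 64 genes (0.529%) and negative for 418 (3.45%), together 3.98%. Among the 168 lower genes 127 had a negative and among the 22 higher genes 9 a positive interaction. The banded difference enters this term, so these counts describe the members and are not independent of their choice. For oxidative phosphorylation 49 of 78 subunits had a negative interaction and none a positive one, and 16 of 78 were called higher in sham right ventricles, with a sham median of 0.64. In all transcripts under 800 nt the median rescaled difference was -0.28 in banded and 0.17 in sham mice. The interaction is given without removal of this trend with length, and the part of length in it was not tested.

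**Figure D4:**
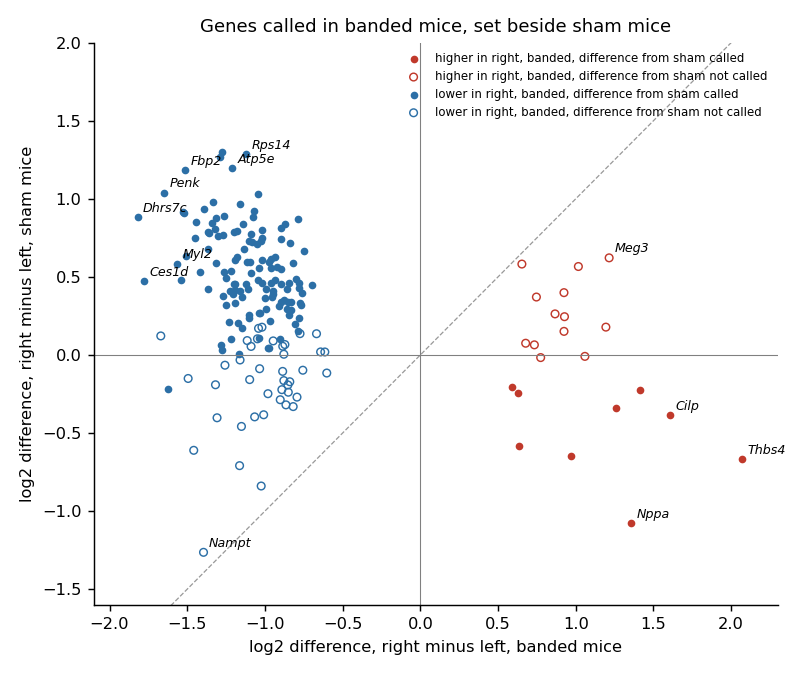
Each point is 1 of the 190 genes called in banded mice, with its right minus left log2 difference in banded mice (x axis) and in sham mice (y axis), filled where the difference between the 2 was called. Of the 168 lower genes (blue) 140 lie above 0 on the sham axis, while the 22 higher genes (red) divide into 11 above and 11 below.

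For Ndufs6 the sham levels were 1661, 1078, 1461 and 1458 FPKM in the right and 620, 531, 799 and 1164 FPKM in the left libraries (replicates 1 to 4), so the sham right ventricle was the higher one (0.91, called) and the interaction was -2.43 (SE 0.30, adjusted p 0.00069). Atp5e moved the same way, with 3588, 1794, 2698 and 2446 FPKM in sham right and 864, 1056, 1204 and 1399 FPKM in sham left libraries, and an interaction of -2.41 (SE 0.32, adjusted p 0.00069). The banded right libraries of Atp5e, at 843 to 1261 FPKM as deposited, were below all sham right libraries. Penk measured 16.4 to 21.7 FPKM in sham right and 6.95 to 9.77 FPKM in sham left libraries, the reverse order of the banded mice (interaction -2.69, SE 0.33, adjusted p 0.00069). Fbp2 measured 14.2 to 33.1 FPKM in sham right and 8.35 to 12.1 FPKM in sham left libraries (interaction -2.69, SE 0.33, adjusted p 0.00069), so its left levels overlapped between banded and sham mice while its right levels did not.

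Nppa measured 49.1, 91.9, 82.3 and 40.0 FPKM in sham right and 224, 101, 157 and 85.9 FPKM in sham left libraries. Both banded groups were above all sham libraries, and the interaction was 2.43 (SE 0.46, adjusted p 0.00404). Nppb, not called between the banded ventricles, measured 63.3 to 234 FPKM in sham right and 208 to 385 FPKM in sham left libraries and had a called interaction of 2.60 (SE 0.60, adjusted p 0.0151). Ankrd1 was in the same position, at 224 to 622 FPKM in sham right and 860 to 1638 FPKM in sham left libraries (interaction 1.68, SE 0.47, adjusted p 0.0431). Ccnd2, cyclin D2 of the cell cycle, and the inositol phosphate kinase Ip6k3 also had higher sham left than sham right levels and called interactions of 1.78 and 2.13. Thbs4 measured 0.38 to 1.53 FPKM in sham right and 1.53 to 4.17 FPKM in sham left libraries (interaction 2.73, SE 0.46, adjusted p 0.00223).

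Transcript length moved with the right against left difference. The 168 lower genes had a median transcript length of 1422 nt and the 22 higher genes one of 3735 nt, beside 3057 nt over 12012 tested genes with a length. The median rescaled difference rose from -0.28 in transcripts under 800 nt to 0.14 in those of 5000 nt or more, and the share called lower fell from 6.30% to 0.363%. Right PS_9564 stood apart, with a median deviation of -0.53 in the shortest and 0.23 in the longest class. In sham mice the trend ran the other way, from 0.17 to -0.22. The trend of every library with length and GC content was then removed from the rescaled values. After this removal 125 of the 190 genes were called, and the oxidative phosphorylation median was -0.63 with 19 of 78 called lower. Thbs4, Cilp, Nppa, Myl2 and Ndufs6 were among the genes still called. The collagens Col1a1, Col12a1 and Col27a1 lost their call, as did Ltbp2, Sdha, Atp5k, Ndufs3, Tnnc1, Pln and Hopx. Without right PS_9564 the rescaled median of the subunits was -0.62, with 5 called.

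**Figure D5:**
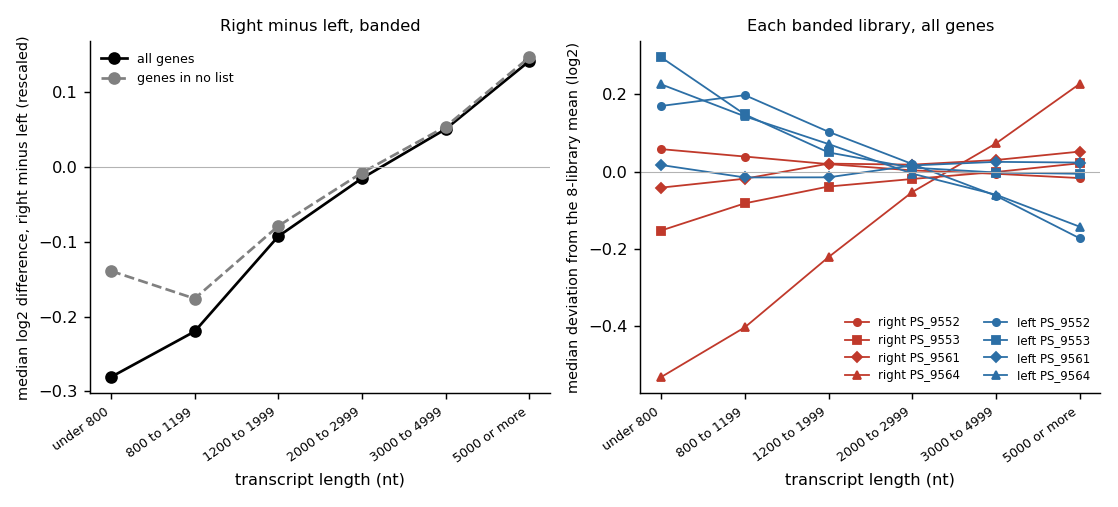
Left, median right minus left log2 difference (rescaled) of banded mice by transcript length class for all genes and for genes in none of the lists. Right, median deviation of each banded library from the mean of the 8 libraries by length class, where right PS_9564 runs from -0.53 in the shortest to 0.23 in the longest class.

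Within the 5 libraries listed at 0 for Rn45s, 2 right and 3 left, the median of the oxidative phosphorylation subunits was -0.98 as deposited, and within the other 3, 2 right and 1 left, it was -0.82, both near that of all 8 libraries. Within the same sets the matricellular median was -0.01 and 0.56. These sets are too small for the gene calls, of which there were 0 in the first (1121 genes at an unadjusted limma p below 0.05 on both scales) and 4 in the second.

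Markers of other cell types were read in the same libraries. No gene was called among 20 endothelial, 12 mural, 18 macrophage and myeloid, 3 lymphocyte and 7 mesothelial markers tested. All 18 macrophage and myeloid markers had lower values in the right ventricle as deposited and 16 rescaled (median -0.39, rescaled -0.25). The 5 tested adipocyte markers had lower values as deposited and 4 of them rescaled, with none called. Skeletal muscle markers summed to 914 to 1350 FPKM in the right and 1650 to 2260 FPKM in the left libraries without overlap. Of the 12 in the list 3 were tested, 2 with a negative and 1 with a positive difference, and Ckm was called lower. Much of each sum was Ckm, whose values are given above. Of 14 fibroblast markers tested, Col1a1 was called higher and Scara5 lower (-0.92), and the summed FPKM of the 15 in the table was 857 to 1340 in the right and 1090 to 1690 in the left libraries. The summed ventricular myocyte markers were 21600 to 30700 FPKM in the right and 44600 to 54100 FPKM in the left libraries without overlap, with 4 of 13 called lower (Myl2, Tnni3, Myh6 and Pln). The median difference of the 13 was -0.53 as deposited, -0.38 rescaled and -0.07 after quantile normalization. Erythroid genes summed to 255 to 555 FPKM in the right and 545 to 1250 FPKM in the left libraries, and Hba-a2, an alpha globin with a near-identical copy, Hba-a1, was called lower (-1.27). Pancreatic genes, none of them called, summed to 68.6 to 157 FPKM in the right and 26.9 to 60.6 FPKM in the left libraries. Ins2 alone was at 46.8 to 114 FPKM in the right and 18.4 to 47.0 FPKM in the left libraries. The exocrine genes Prss1, Pnlip, Amy2b and Reg1 were at 0 in all 8, while the exocrine gene Cela1 was at 0.698 to 2.64 FPKM. The part of these markers in the differences above was not tested.

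Each of the 16 libraries was also left out in turn. Of the 190 genes, 21 were called in all 16 of these fits, and the same 21 were called once the trend with length and GC was removed, while 20 were called after quantile normalization and 0 with TPM scaling. Thbs4 was the 1 higher gene among them. The 20 lower ones were the complex I subunits Ndufs6, Ndufb7 and Ndufb9, the ATP synthase subunit Atp5c1, the contractile genes Myl2, Tnni3 and Myoz2, Ckm, Dhrs7c, Ces1d, Penk and Ttll1, which the text above names except for Atp5c1, and 8 named here after their values were seen. These 8 were Chchd3 (-1.17), of the complex that shapes mitochondrial cristae, Retsat (-1.03), retinol saturase, Sord (-1.32), sorbitol dehydrogenase, Npc1 (-0.98), which exports cholesterol from lysosomes, Ybx1 (-1.22), an RNA-binding protein, and Eef1d (-1.19), Tcea3 (-1.12) and Ppp1r11 (-1.14), of translation, transcription and phosphatase control. The other 169 genes lost their call in at least 1 fit. Of the 8 fits without a banded library, Sdha was called in 0, Vegfa in 1, Cilp and Atp5k in 2, Ltbp2, Col1a1 and Cox6a2 in 3 and Ndrg4 in 7. Without left PS_9552 25 genes were called, and without left PS_9564 43, right PS_9564 48, left PS_9553 55, right PS_9553 55, right PS_9561 66, right PS_9552 109, sham left replicate 3 110 and left PS_9561 116. The log2 difference of the 190 kept its sign in each of these fits.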

How the data were processed

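PolyA RNA of 16 libraries was measured, 4 per group. Per the submitters' processing notes, the authors used FastQC 0.11.5, STAR 2.5.3a, Cufflinks 2.2.1 with Cuffdiff, R 3.3.1 and the build mm9. How these were combined, the annotation and strand use were not given in the sources used here. The deposited values are FPKM per gene and library, and fragment counts were not used here. FPKM divide by length and library total, so a change in a few abundant transcripts shifts all others.

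Of 23946 genes, the 12100 that reached 1 FPKM in 4 or more of the 16 libraries were analysed as log2(FPKM + 1), with a pseudocount of 1. Group means were fitted with limma 3.58.1 under R 4.3.3, with a prior variance that follows the mean level, and the script was tested on simulated data. All 16 libraries shared 1 estimate of spread. The Benjamini-Hochberg adjustment ran over the 12100 genes of a contrast, with a threshold of 0.05. Each scale factor was the median, over 8211 genes, of a library's ratio to the geometric mean of the libraries. The right and left ventricle were compared in banded and in sham mice, with the difference between these contrasts as interaction. Depth was estimated from the steps of the lowest values if fragments are 200 nt long.

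The members, the 51 gene lists and the rules were chosen with earlier results of these data known. Named were the 15 largest differences in each direction among called genes whose mean reached 5 FPKM in the higher ventricle and whose libraries did not overlap on either scale (without predicted genes, small or ribosomal RNA, pseudogenes and rows that list several symbols), 28 fixed genes, up to 4 called members of each list with the smallest p-values (at most 2 per direction where both occur), and the 5 genes with the smallest interaction p in each direction. Exceptions are said in the text, and 2 of the named genes are not reported here. Transcript lengths, GC content and upstream sequences came from GENCODE and RefSeq tables of the later mouse build, matched by symbol. Alternatives were other pseudocounts, filters, scalings, priors, library weights, a replicate block, subsets by Rn45s, a Rn45s covariate and omission of each library.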

Additional observations from a re-analysis of the deposited data

Results flagged for a closer look

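The right against left difference was tested for a difference between banded and sham mice in each of 105 named genes (limma interaction over 16 libraries, Benjamini-Hochberg adjusted p below 0.05 on both scales). It differed in 66 of them, 55 with a more negative and 11 with a more positive difference in banded mice. Over all 12100 genes tested the shares were 3.98% called, 3.45% negative and 0.529% positive. The values here are log2, banded minus sham. The genes were in part chosen for their banded difference and in part for a small p of this interaction, so their number is a description. The values are not corrected for transcript length, with which the banded and sham differences moved in opposite directions.

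Among oxidative phosphorylation subunits the values were -2.43 for Ndufs6, -2.29 for Ndufb7, -2.14 for Ndufb9, -1.79 for Ndufb11 and -1.57 for Ndufs3 of complex I, and -1.52 for Uqcrh of complex III. Complex IV gave -2.21 for Cox7a1, -2.16 for Cox6a2, -1.98 for Cox7a2, -1.96 for Cox4i1 and -1.36 for Cox7b. ATP synthase gave -2.41 for Atp5e, -2.31 for Atp5k, -2.13 for Atp5g1, -1.95 for Atp5o, -1.57 for Atp5h and -1.35 for Atp5c1.

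Among fuel genes the values were -1.99 for Etfb, -1.86 for Acaa2, -1.10 for Hadha, -1.71 for Ucp3, -1.09 for Fabp3, -2.69 for Fbp2, -1.81 for Eno3, -1.56 for Pgam2, -1.15 for Ldhb and -1.91 for Ckm. Contractile and calcium store genes gave -2.18 for Tnni3, -2.15 for Myl2, -1.37 for Myoz2, -1.36 for Tnnc1, -1.52 for Hrc and -2.70 for Dhrs7c.

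Other negative values were -2.69 for Penk, -2.57 for Hba-a2, -2.44 for Tpt1, -2.40 for Rps14, -2.25 for Ces1d, -2.20 for Fitm1, -2.15 for Map1lc3a, -2.02 for Dnajc15, -1.80 for Eef1d, -1.63 for Ybx1, -1.63 for Sod1 and -1.58 for Tcea3. Smaller ones were -1.49 for Scara5, -1.40 for Ttll1, -1.32 for Ppp1r11, -1.29 for Hopx, -1.24 for Fhl2, -1.19 for Trim54, -1.17 for Chchd3, -1.14 for Retsat, -1.02 for Npc1 and -0.95 for Hspb7.

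Positive values were 2.73 for Thbs4, 2.60 for Nppb, 2.43 for Nppa, 2.13 for Ip6k3, 1.99 for Cilp, 1.78 for Ccnd2, 1.68 for Ankrd1, 1.64 for Ltbp2, 1.61 for Dact3, 1.22 for Prkab2 and 0.87 for Unc5b. Nppb, Ip6k3, Ccnd2 and Ankrd1 were not called between the ventricles of banded mice, and the other 7 were.

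In 7 of 210 groups of 4 banded libraries, 1 library stood far from the other 3, where chance gives about 1 in 20. In the left ventricle these were PS_9552 for Acaa2 (446.9 FPKM, the highest) and Hadha (497.4 FPKM, the highest), PS_9564 for Dact3 (13.13 FPKM, the highest) and PS_9561 for Ndrg4 (25.46 FPKM, the highest). In the right ventricle they were PS_9564 for Kcnd2 (5.255 FPKM, the highest), a potassium channel gene that was not called, PS_9561 for Postn (83.77 FPKM, the highest) and PS_9552 for Vasp (24.26 FPKM, the lowest).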

How the results depend on the processing

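Of 12100 genes, 190 were called between the banded ventricles, 22 higher and 168 lower in the right. The lower count was 107 with no filter on low values and 253 with a filter at 5 FPKM. As deposited alone, 373 were called (350 lower), with 733 for the interaction. Rescaled alone, 82 were higher, and 1043 were called in sham mice. TPM scaling called 0 between the banded ventricles, 0 higher and 0 lower (1335 at an unadjusted limma p below 0.05), 3027 in sham mice and 754 for the interaction. It divides by a sum of which Mir6236 alone made up 21.3% to 59.7% in the banded libraries. The median of the oxidative phosphorylation subunits with TPM scaling was -0.85. Quantile normalization called 100 higher and 92 lower, and 863 in sham mice. A fit to the 8 banded libraries called 37 higher. Library weights called 759 (104 higher, 655 lower). A covariate for whether Rn45s was listed at 0, in a fit to the 8 banded libraries only, called 641 (221 higher, 420 lower). The 5 banded libraries listed at 0 for Rn45s called 0 (0 higher, 0 lower) and the other 3, a choice made after seeing the data, 4 (1 higher, 3 lower). The correction for transcript length and GC content, also chosen after seeing the data, called 38 higher. The cause of these changes was not tested.

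With 1 library left out, the banded count ran from 25 to 263 (higher 2 to 30, lower 23 to 236), the sham count from 80 to 569 and the interaction count from 274 to 595. All 190 called genes kept the sign of their difference in these settings, except that 4 of them were not tested at 5 FPKM, where 186 kept it.

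Right and left libraries share only a number. The correlations of same-numbered deviations were 0.16, -0.02, 0.03 and -0.08, not all over 0.1, so they do not establish pairing. With the number as replicate block, 74 genes were called between the banded ventricles (56 lower), 108 between the sham ventricles and 178 for the interaction, and 39 of the 190 were among the 74. Of the 21 genes called in every fit that left out 1 library, 16 were called with the block, and Ckm, Myl2, Myoz2, Penk and Tnni3 were not.

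At an estimated 2350000 to 8890000 fragments per banded library, a median-length transcript at 5 FPKM rests on 33.6 to 127 fragments and one at 1 FPKM on 6.72 to 25.4.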
